A study of Mus musculus with 9 samples.

Results

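The genes described here are 10 precursors of neuropeptides, Trh, Sst, Npy, Penk, Pdyn, Tac1, Cck, Nts, Gal and Adcyap1, among the 21356 gene names in a table of mRNA levels from the mouse embryonic midbrain at E13.5. They were found in the table by their symbols, and each of the 10 had 1 row. Trh was included because it had been seen to be higher in the libraries labelled as Gpr161 cKO, so its difference between the mutant and the controls is what chose it and is given as a description with no test. The other 9 were chosen as precursors of well known neuropeptides, with earlier results of these data known.

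The table holds 9 poly-A selected libraries of C57BL/6 embryos, 3 of each genotype. The floxed control was Gpr161 f/f without Cre, the Cre control was Gpr161 f/+;Wnt1-Cre, and the Gpr161 cKO was homozygous for the floxed allele with Wnt1-Cre (the titles of these libraries spell the gene Gpt161). All groups thus carried at least 1 floxed allele, and only the Cre control and the cKO carried the transgene. Wnt1-Cre recombines in the dorsal midbrain neuroectoderm and the neural crest, so the dissected tissue of a cKO can also hold cells outside that lineage, and the Cre control carries the Wnt1-Cre transgene as well as 1 floxed allele that it can recombine. The transgene is itself known to raise Wnt1 in the midbrain. The labels do not say whether each library came from a separate embryo, and p-values measure the spread between these libraries.

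The values were deposited on a log2 scale whose transformation is not named. Judged from the values themselves, the libraries were already normalized and weak expression was shrunk, so that differences of weakly expressed genes may be compressed. No counts of reads are given, and sequencing depth is unknown. A gene was tested where it reached 1 cpm, taken from the values on a linear scale, in 3 or more libraries, which 14033 genes did. Of the 10 precursors, 9 were past this minimum in all 9 libraries, and Gal was under it in every library. Genotypes were compared with limma over all tested genes, and a gene was called where the Benjamini-Hochberg adjusted p was under 0.05. Each library's group is that of its label. Gpr161 itself, on chromosome 1 from 165295789 to 165326745 of GRCm38, averaged 11.77 ± 0.030 among floxed controls, 11.88 ± 0.096 among Cre controls and 11.88 ± 0.12 in the libraries labelled cKO (log2 value, SD, n = 3), and since 1 value per gene does not separate the exons, these values do not check the deletion. In the same libraries all 20 pan-neuronal genes, 13 of 13 glutamatergic and 12 of 12 GABAergic midbrain markers and 9 of 10 dopaminergic markers (1 was not analysed here) were past the minimum, and so were 9 of 12 hindbrain and 8 of 8 choroid plexus markers.

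Neuropeptides are made as long precursor proteins that enter the secretory pathway, are packed into dense-core vesicles, and are cut at basic residues by the prohormone convertases encoded by Pcsk1 and Pcsk2. Carboxypeptidase E then trims the ends and Pam amidates many of the peptides, which act on G protein-coupled receptors and are ended by peptidases on the cell surface. In the midbrain, peptides such as cholecystokinin, neurotensin, substance P and enkephalin are co-released by dopaminergic, tectal and periaqueductal neurons, and at E13.5 these neurons are still being born and sorted. Transcription of several precursor genes is known to respond to cAMP through the factor CREB, and Gpr161 is a receptor of the primary cilium that raises cAMP and represses Shh signaling.

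The promoters of 9 of the 10 genes were found in RefSeq (GRCm38.p6), Penk being the exception. The stretch of 250 bases before the start site is shown for Trh, for the 3 genes that fell in cKO against both controls (Tac1, Cck and Adcyap1), and for Sst, which was the most highly expressed and the only one with a complete cAMP response element. Capitals mark this element, TGACGTCA, its core of 5 letters TGACG on either strand, and the variant TGACCTCA. The regions are chr6:92244651-92244900 on the minus strand for Trh, chr16:23890845-23891094 on the minus strand for Sst, chr6:7554811-7555060 on the plus strand for Tac1, chr9:121495695-121495944 on the minus strand for Cck and chr17:93198767-93199016 on the plus strand for the first of the Adcyap1 starts, and each sequence reads 5′ to 3′ toward the gene. The start sites are those of RefSeq, which for Sst and Tac1 lie inside the gene as GENCODE annotates it.
Trh: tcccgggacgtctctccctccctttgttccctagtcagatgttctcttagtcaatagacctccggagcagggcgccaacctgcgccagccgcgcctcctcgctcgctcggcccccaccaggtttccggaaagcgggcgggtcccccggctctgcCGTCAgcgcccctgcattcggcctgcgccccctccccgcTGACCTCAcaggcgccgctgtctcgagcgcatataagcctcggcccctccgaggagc
Tac1: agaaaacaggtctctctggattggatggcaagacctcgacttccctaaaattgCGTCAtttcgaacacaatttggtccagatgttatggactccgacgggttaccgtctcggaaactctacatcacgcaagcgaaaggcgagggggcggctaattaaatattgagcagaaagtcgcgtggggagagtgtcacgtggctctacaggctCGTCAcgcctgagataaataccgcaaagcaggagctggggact
Cck: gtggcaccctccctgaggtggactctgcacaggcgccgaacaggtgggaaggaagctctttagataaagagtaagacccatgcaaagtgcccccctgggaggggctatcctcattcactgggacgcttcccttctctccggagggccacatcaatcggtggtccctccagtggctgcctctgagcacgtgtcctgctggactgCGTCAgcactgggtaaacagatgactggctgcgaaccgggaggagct
Adcyap1: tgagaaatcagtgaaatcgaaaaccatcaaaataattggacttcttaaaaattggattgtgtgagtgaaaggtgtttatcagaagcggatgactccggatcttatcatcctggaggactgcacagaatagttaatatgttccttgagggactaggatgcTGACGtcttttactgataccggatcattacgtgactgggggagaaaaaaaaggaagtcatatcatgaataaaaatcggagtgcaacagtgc
Sst: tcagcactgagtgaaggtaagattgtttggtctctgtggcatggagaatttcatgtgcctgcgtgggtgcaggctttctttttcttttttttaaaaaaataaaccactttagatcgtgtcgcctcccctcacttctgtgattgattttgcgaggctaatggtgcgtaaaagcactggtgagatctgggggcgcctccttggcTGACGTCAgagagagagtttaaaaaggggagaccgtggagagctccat

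In the Sst promoter, TGACGTCA began 48 bases before the start site, and its core was counted within it on both strands. In the Trh promoter, TGACCTCA began 57 bases before the start and a core lay on the other strand 96 bases before it. The Cck core was 47 bases before the start, that of Tac1 43 and 197 bases, and that of Adcyap1 91 bases. On either strand, the full element was found in 1 of the 9 genes with a promoter and in 1.55% of the 32851 promoters of the reference, the core in 6 of 9 genes and in 17.8% of promoters, and TGACCTCA in 1 of 9 genes and in 1.94% of promoters. The Gli motif GACCACCCA was in 0 of the 9 genes and in 0.225% of promoters. Members were counted by gene, where a match in any promoter of the gene sufficed, and the reference was counted by promoter. Pdyn and Adcyap1 had more than 1 promoter, so the shares are not of like units. The matches are a description of these letters. Genes with the core were Tac1, Cck and Adcyap1, which fell in cKO against both controls, and Sst, which passed in neither comparison. Trh and Nts, with higher means in cKO, also had it, and Npy, Pdyn and Gal did not.

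Trh (chromosome 6, 92242061 to 92244650, minus strand) encodes the precursor of thyrotropin-releasing hormone, a tripeptide that is cut in several copies from 1 protein and is best known from the hypothalamus. Its log2 values were 5.59, 5.65 and 5.67 among floxed controls, 5.81, 5.76 and 5.69 among Cre controls and 6.50, 6.88 and 6.63 among cKO libraries. Every cKO library lay above every control library, with 0.69 between the lowest cKO and the highest control value. The mean was 6.67 ± 0.20 in cKO (SD, n = 3), against 5.64 ± 0.041 in the floxed control and 5.75 ± 0.061 in the Cre control. The log2 difference was 1.03 from the floxed control, a 2.05-fold higher value, and 0.92 from the Cre control, a 1.89-fold higher value. These are the values for which Trh was chosen. Ordered by size, this log2 difference ranked 40 versus floxed controls and 15 versus Cre controls among the 14033 genes.

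Between the controls, a comparison that the choice of Trh did not use, Trh was 0.11 higher in the Cre control on the log2 scale (95% interval -0.082 to 0.31, limma, adjusted p = 0.511). The libraries of the controls did not overlap, as those of 10.8% of all genes tested did not in this direction, and the difference did not pass. The cKO libraries spread more than those of the controls, with an SD of 0.20 against 0.041 and 0.061, and cKO replicate 2 was the highest. Markers of the hypothalamus and diencephalon, where Trh is also expressed, summed to 272 to 326 cpm in the floxed control, 275 to 375 cpm in the Cre control and 296 to 332 cpm in cKO. Of the 10 tested, 1 was higher and 0 were lower in cKO in each comparison, and their part in Trh was not tested.

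**Figure D1:**
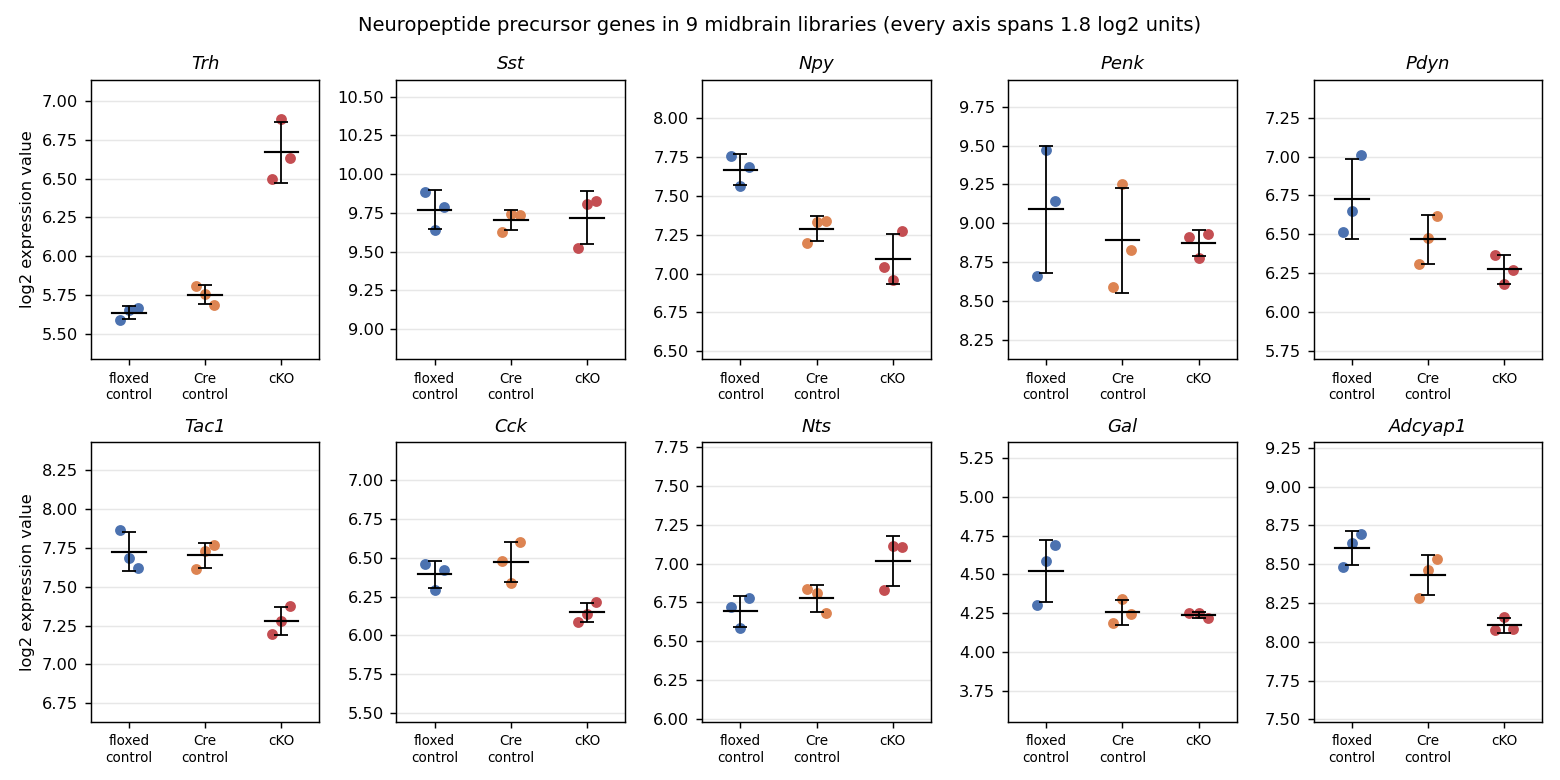
Log2 expression value of the 10 precursor genes in each of the 9 libraries. Points are libraries, horizontal lines are means and bars are SD (n = 3), and each vertical axis spans the same 1.8 log2 units at its own level. The 3 cKO libraries lie above all 6 control libraries for Trh and below all 6 for Tac1, Cck and Adcyap1.

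Tac1 (chromosome 6, 7554879 to 7565834), the precursor of substance P and neurokinin A, had values of 7.87, 7.69 and 7.62 among floxed controls, 7.61, 7.73 and 7.77 among Cre controls and 7.19, 7.28 and 7.37 among cKO libraries on the log2 scale. The controls overlapped, and each cKO library was lower than each control library by at least 0.24. Tac1 fell in cKO by 0.44 versus floxed controls (standard error 0.078, limma, adjusted p = 0.00237) and by 0.42 versus Cre controls (adjusted p = 0.0154). The difference versus Cre controls fell short of the threshold on leaving out Cre control replicate 3 or cKO replicate 1 (limma, adjusted p = 0.0618 and 0.0653).

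Adcyap1 (chromosome 17, 93199017 to 93206537), which encodes PACAP, a peptide that raises cAMP in its target cells, had values of 8.48, 8.63 and 8.69 among floxed controls, 8.28, 8.46 and 8.54 among Cre controls and 8.07, 8.16 and 8.08 among cKO libraries. The values in cKO were close to each other (SD 0.047) and under all control values. It fell by 0.50 versus floxed controls (standard error 0.077, limma, adjusted p = 0.00137) and by 0.32 versus Cre controls (adjusted p = 0.0331). The second of these fell short of the threshold on leaving out either of Cre control replicates 2 and 3, or any of cKO replicates 1, 2 and 3 (limma, adjusted p = 0.0854, 0.115, 0.120, 0.0660 and 0.0759) or in a fit of the 6 libraries alone (0.0578).

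Cck (chromosome 9, 121489824 to 121495694), the precursor of cholecystokinin, which is a peptide of midbrain dopaminergic neurons, had values of 6.46, 6.30 and 6.42 among floxed controls, 6.48, 6.34 and 6.60 among Cre controls and 6.09, 6.14 and 6.22 among cKO libraries. All 3 cKO libraries were lower than the controls, though the gap was only 0.080. It fell by 0.25 versus floxed controls (limma, adjusted p = 0.0281) and by 0.32 versus Cre controls (adjusted p = 0.0309). Versus floxed controls it fell short of the threshold on leaving out floxed control replicate 1 or 3 or cKO replicate 1 or 2 (limma, adjusted p = 0.0939, 0.0852, 0.0978 and 0.0727). Versus Cre controls it fell short of the threshold on leaving out floxed control replicate 3, Cre control replicate 3 or cKO replicate 1 or 2 (limma, adjusted p = 0.0501, 0.104, 0.121 and 0.0820) or in a fit of the 6 libraries alone (0.0608). The dopaminergic markers of the same libraries had 4 of 9 genes lower versus floxed controls and 3 of 9 lower versus Cre controls, with 0 higher. Their summed level was 191 to 207 cpm in the floxed control, 186 to 229 cpm in the Cre control and 170 to 201 cpm in cKO, and their part in the values of Cck was not tested.

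Npy (chromosome 6, 49822710 to 49829507), the precursor of neuropeptide Y, had values of 7.76, 7.56 and 7.69 among floxed controls, 7.19, 7.33 and 7.34 among Cre controls and 7.04, 6.96 and 7.28 among cKO libraries. The floxed control stood apart from the other groups, and the Cre control and the cKO overlapped. Npy fell in cKO by 0.58 versus floxed controls (standard error 0.088, limma, adjusted p = 0.00130), the most of the 8 tested precursors other than Trh. Its log2 difference of -0.20 from the Cre control had a 95% interval of -0.39 to 5.2e-04 (limma, adjusted p = 0.172). Between the controls the log2 difference was -0.38 (limma, adjusted p = 0.145, unadjusted p = 0.00144), with no overlap, as in 12.1% of all genes in this direction. In cKO and in the Cre control Npy was thus lower than in floxed controls by amounts of which only the first passed, and whether the steps differ was not tested.

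Penk (chromosome 4, 4133531 to 4138819) and Pdyn (chromosome 2, 129686565 to 129699844) encode the opioid precursors proenkephalin and prodynorphin. Penk had values of 8.66, 9.47 and 9.14 among floxed controls, 8.59, 9.25 and 8.83 among Cre controls and 8.91, 8.78 and 8.93 among cKO libraries, so that the cKO values lay inside the range of both controls. Its log2 difference in cKO was -0.22 from the floxed control (95% interval -0.66 to 0.23, limma, adjusted p = 0.418) and -0.016 from the Cre control (95% interval -0.46 to 0.43, adjusted p = 0.967), intervals that include changes as large as those of the precursors that fell. The latter came to 0.17 on leaving out Cre control replicate 2 (limma, adjusted p = 0.619) and to 0.032 on leaving out cKO replicate 2. The SD of Penk within genotypes was 0.31, larger than that of 98.8% of the 500 tested genes nearest to it in level. Summed choroid plexus markers also varied between the control libraries, with 256, 725 and 595 cpm in the floxed control, 243, 387 and 192 cpm in the Cre control and 258, 199 and 226 cpm in cKO. In each control group the library with the highest Penk also had the most of these markers, which was not so in cKO. Of the 8 markers, 1 was lower in cKO than in floxed controls past the adjusted p and 0 than in Cre controls by limma (0 at an unadjusted p under 0.05), and their part in Penk was not tested.

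Pdyn had values of 6.52, 6.65 and 7.01 among floxed controls, 6.31, 6.47 and 6.62 among Cre controls and 6.37, 6.18 and 6.27 among cKO libraries. Its groups formed a row in which only the outer ones, floxed control and cKO, did not overlap. It fell in cKO by 0.45 versus floxed controls (limma, adjusted p = 0.0164), though not past the threshold without cKO replicate 2 (adjusted p = 0.0585). The log2 difference from the Cre control was -0.19 (95% interval -0.47 to 0.081, limma, adjusted p = 0.321).

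Gal (chromosome 19, 3409915 to 3414544), the precursor of galanin, was under the minimum in all 9 libraries. It had values of 4.30, 4.58 and 4.69 among floxed controls, 4.18, 4.34 and 4.24 among Cre controls and 4.25, 4.25 and 4.22 among cKO libraries on the log2 scale. Only floxed control replicates 2 and 3 stood above the rest. In the fit with no minimum it was lower in cKO by 0.28 versus floxed controls (adjusted p = 0.0363 by limma over 19549 genes), and its log2 difference was -0.016 from the Cre control (adjusted p = 0.935).

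Pdyn and Gal were highest in the same library, floxed control replicate 3. The 12 hindbrain markers summed to 52.7, 57.8 and 69.5 cpm in the floxed control, against 41.4 to 52.1 cpm in the Cre control and 45.1 to 46.6 cpm in cKO. Of the 9 tested, 5 were lower in cKO than in floxed controls and 0 than in Cre controls by limma (0 at an unadjusted p under 0.05). The 12 markers of sensory neurons and neural crest derivatives summed to 55.3, 70.6 and 79.3 cpm in the floxed control, 53.6 to 55.6 cpm in the Cre control and 46.6 to 53.0 cpm in cKO. Of the 8 tested, 3 were lower in cKO than in floxed controls and 0 than in Cre controls by limma (2 at an unadjusted p under 0.05). Floxed control replicate 3 thus also had the most of these marker transcripts, and their part in Pdyn, Gal and Npy was not tested.

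Nts (chromosome 10, 102481756 to 102490486), the precursor of neurotensin and neuromedin N, had values of 6.72, 6.58 and 6.78 among floxed controls, 6.84, 6.81 and 6.68 among Cre controls and 6.83, 7.11 and 7.10 among cKO libraries. Apart from Trh, it was the only one of the 10 whose mean was higher in cKO than in both controls. It rose by 0.32 versus floxed controls (standard error 0.088, limma, adjusted p = 0.0167). That call was lost without floxed control replicate 2 or cKO replicate 2 or 3 (limma, adjusted p = 0.0562, 0.0640 and 0.0610). Versus Cre controls the log2 difference was 0.24 (95% interval 0.043 to 0.44, limma, adjusted p = 0.108), and cKO replicate 1 lay within the Cre control values.

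Sst (chromosome 16, 23889573 to 23890958), the precursor of somatostatin, a peptide of inhibitory neurons, had values of 9.89, 9.64 and 9.78 among floxed controls, 9.63, 9.74 and 9.73 among Cre controls and 9.52, 9.81 and 9.83 among cKO libraries. The 3 groups overlapped. The log2 difference in cKO was -0.050 from the floxed control (95% interval -0.25 to 0.15, limma, adjusted p = 0.685) and 0.018 from the Cre control (95% interval -0.18 to 0.22, adjusted p = 0.913), intervals that leave out changes of the size seen in Tac1 and in Trh. The GABAergic lineage markers, among which many Sst neurons fall, had 2 of 12 genes higher and 3 lower in cKO versus floxed controls and 2 higher and 0 lower versus Cre controls. The glutamatergic markers had 11 of 13 lower versus floxed controls and 7 of 13 lower versus Cre controls.

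Across the 8 tested precursors other than Trh, 5 were lower and 1 was higher in cKO than in floxed controls past the adjusted p. Of all genes tested, 18.8% were lower and 19.5% were higher in this comparison. Versus Cre controls 3 were lower, where 4.85% of all genes were, and 0 were higher by limma, where 4.87% of all genes were (1 at an unadjusted p under 0.05). Past the adjusted p against both controls, 3 of the 8 were lower, beside 4.66% of all genes, and 0 were higher by limma, beside 4.7%. The cKO values lay under all 6 control values in 3 of the 8, beside 11.5% of all genes, and above them in 0 of the 8, beside 14.7%. The median log2 difference of the 8 was -0.34 from the floxed control and -0.19 from the Cre control, beside medians of 0.011 and 0.012 over all genes. The comparisons share the cKO libraries, and the precursors were chosen with earlier results of these data known. The shares of all genes past the adjusted p in each comparison also stand beside the counts of the marker lists. The fold change of 1.5 that the study asks of a differentially expressed gene was not reached by any of the 8, Npy being nearest with 0.67 of its level in the floxed control, and 1.58% of all genes were lower and 1.34% higher past both limits. Versus Cre controls 0.228% of all genes were lower and 0.335% higher past both. Fewer cells of a type and less RNA per cell cannot be told apart in this tissue RNA.

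**Figure D2:**
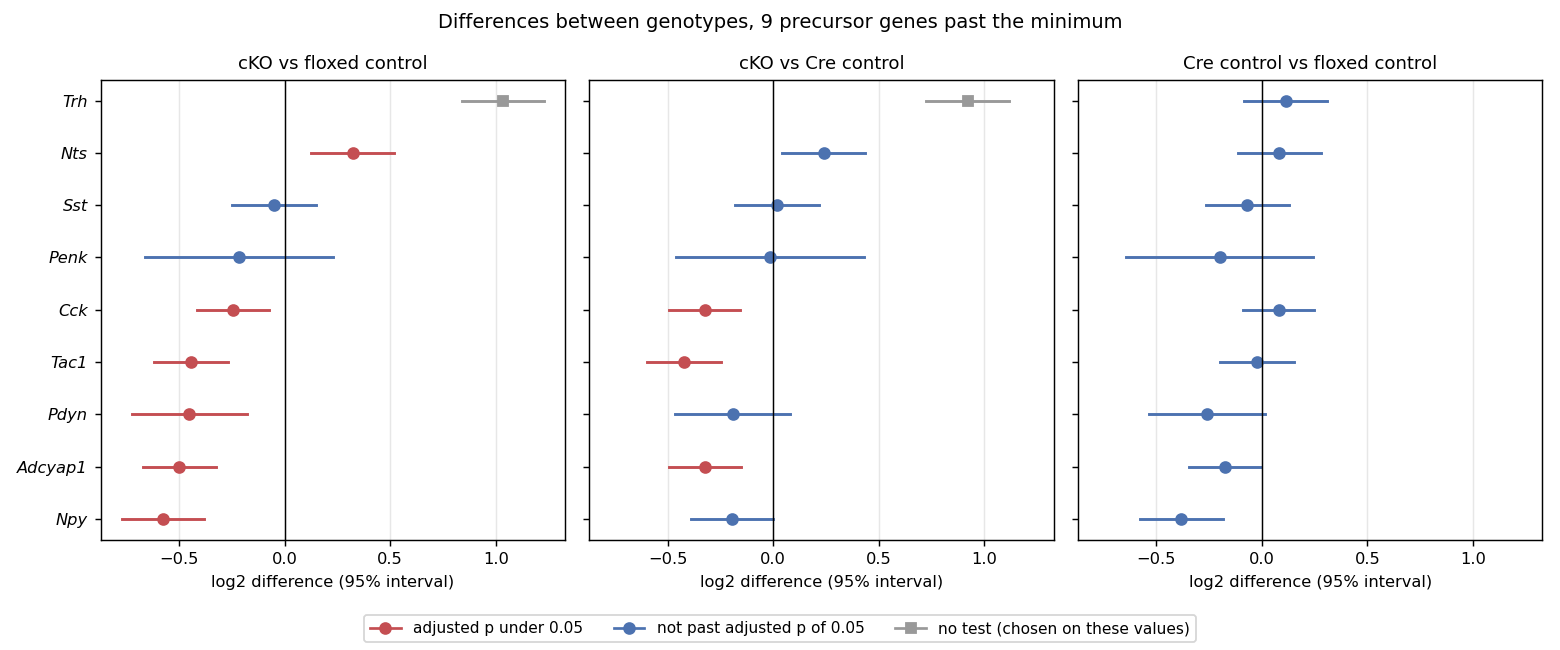
Log2 difference between genotypes for the 9 precursor genes past the minimum, with 95% intervals from limma. Red points passed the adjusted p and blue points did not, and grey squares show Trh where it was chosen on these values. Versus floxed controls 5 genes lie to the left of 0 in red, and between the controls no point is red.

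When the controls were compared with each other, 0 of the 9 tested precursors passed by limma, 2 of them at an unadjusted p under 0.05 (Npy and Adcyap1). Over all genes 0.057% passed the adjusted p and 17.5% the unadjusted p. The mean of the Cre control lay between those of the floxed control and the cKO for Trh, Npy, Penk, Pdyn, Tac1, Nts, Gal and Adcyap1, and outside them for Sst and Cck.

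Levels of different genes were compared per length, as the log2 value less the log2 of the length in kilobases of the longest coding transcript. This assumes that the deposited values were not already corrected for length, which the sources used do not say. On this scale Sst was the highest of the 10 in each genotype, with 10.24 among floxed controls, 10.17 among Cre controls and 10.19 among cKO libraries. Penk, Npy and Tac1 followed in that order in each genotype, with 8.55, 8.49 and 7.43 in the floxed control and 8.34, 7.91 and 6.98 in cKO. In the floxed control Penk and Npy differed by less than the SD of Penk. Adcyap1, Cck and Nts formed the next group, and Nts moved from rank 7 in the floxed control, with 6.37, to rank 5 in cKO, with 6.70. Trh was ranked 9 in the floxed control, with 5.17, and 8 in cKO, with 6.20, so that it remained in cKO at a lower level per length than 7 of the other precursors. Gal was the lowest in each genotype, with 4.58 in cKO.

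Neuropeptide precursors are known from neurons, though which cells of this tissue expressed them was not tested. The 20 pan-neuronal genes, such as Tubb3, Stmn2 and Snap25, were all lower in cKO than in floxed controls past the adjusted p. Versus Cre controls 8 of the pan-neuronal genes were lower. The mean of their log2 values was 12.66 ± 0.066 in floxed controls, 12.41 ± 0.16 in Cre controls and 12.14 ± 0.12 in cKO (SD, n = 3). Each precursor was also set against this mean in the same library. Relative to it, the difference between cKO and floxed control was 1.55 for Trh, 0.84 for Nts and 0.47 for Sst on the log2 scale. For these 3 genes, of which Trh was chosen for its cKO values, every cKO library was above every library of either control. Since the neuronal mean was itself lower in cKO, a gene with no change of its own also lies higher on this scale. The log2 value of Sst itself differed by -0.050 from the floxed control, which did not pass. The share of all genes separated in this way was not computed. Gal, under the minimum in all libraries, was 0.24 and 0.25 higher than in floxed and Cre controls on this scale, also with no overlap. Cck and Penk were 0.28 and 0.30 higher than in floxed controls on this relative scale, where Cck overlapped the Cre control and Penk overlapped both controls. For Adcyap1, Npy, Pdyn and Tac1 the relative difference from the floxed control was 0.022, -0.056, 0.069 and 0.076, and the values of the groups overlapped. Versus Cre controls, Tac1 was 0.15 lower in cKO relative to the neuronal mean, with no overlap. The relative values show unequal change of a precursor and the pan-neuronal genes, and they do not show that a gene stayed the same.

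**Figure D3:**
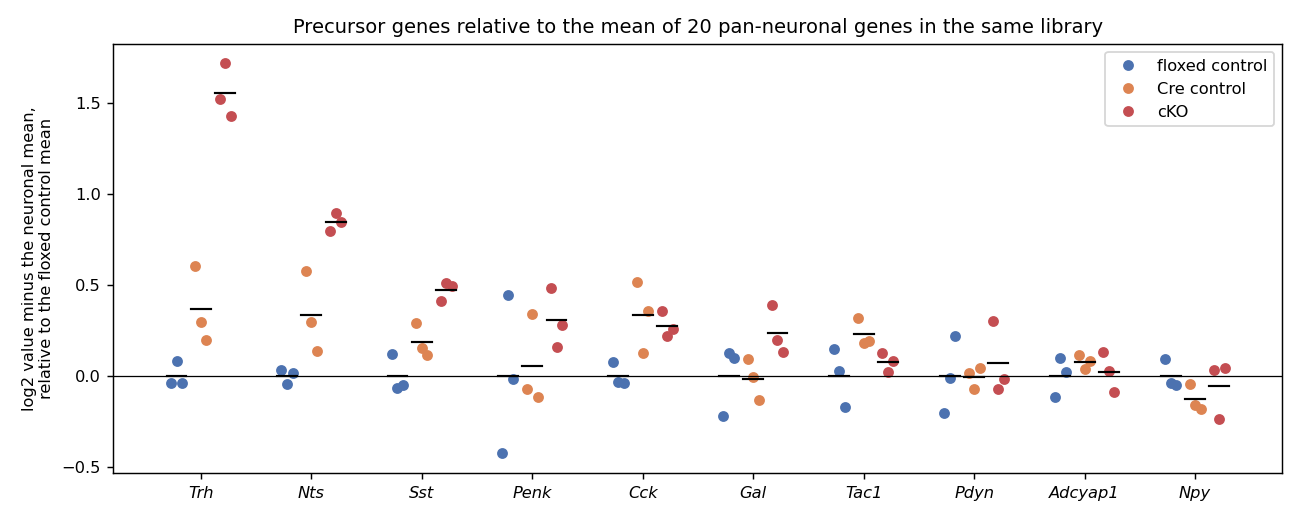
Log2 value of each precursor gene less the mean log2 value of 20 pan-neuronal genes in the same library, set to 0 at the mean of the floxed control. Points are libraries and lines are group means (n = 3). Trh, Nts, Sst and Gal, the last under the minimum, are higher in all cKO libraries than in all controls. Adcyap1, Npy, Pdyn and Penk overlap between groups. The neuronal mean itself is lower in cKO, and the share of all genes separated in this way was not computed.

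The hormone made from Trh is ended outside the cell by the ectoenzyme encoded by Trhde (chromosome 10, 114398823 to 114802307), the TRH-degrading enzyme. Trhde had values of 7.75, 7.67 and 7.90 among floxed controls, 7.40, 7.51 and 7.46 among Cre controls and 7.002, 7.08 and 7.28 among cKO libraries on the log2 scale. The 3 groups did not overlap, in the order opposite to that of Trh. The mean of the pan-neuronal genes had the same order as Trhde, with 12.66, 12.41 and 12.14 in floxed controls, Cre controls and cKO. The share of all genes separated in this order was not computed. Trhde fell in cKO by 0.65 versus floxed controls (limma, adjusted p = 6.74e-04) and by 0.34 versus Cre controls (adjusted p = 0.0359). The second of these fell short of the threshold on leaving out floxed control replicate 1, either of Cre control replicates 2 and 3, or cKO replicate 1 or 2 (limma, adjusted p = 0.0517, 0.0940, 0.104, 0.137 and 0.0971), in a fit of the 6 libraries alone (0.0601) or with no minimum (0.0510). Between the controls its log2 difference was -0.31 (limma, adjusted p = 0.158).

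Trhr, the receptor of the hormone, was near the minimum, with 5.04, 4.87 and 4.92 among floxed controls, 5.02, 4.77 and 4.82 among Cre controls and 5.03, 4.91 and 4.95 among cKO libraries. Its log2 difference in cKO was 0.021 from the floxed control (95% interval -0.14 to 0.19, limma, adjusted p = 0.840) and 0.092 from the Cre control (adjusted p = 0.435). Trhr2 was under the minimum, with means of 0.66, 0.66 and 0.67 in the floxed control, the Cre control and cKO.

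**Figure D4:**
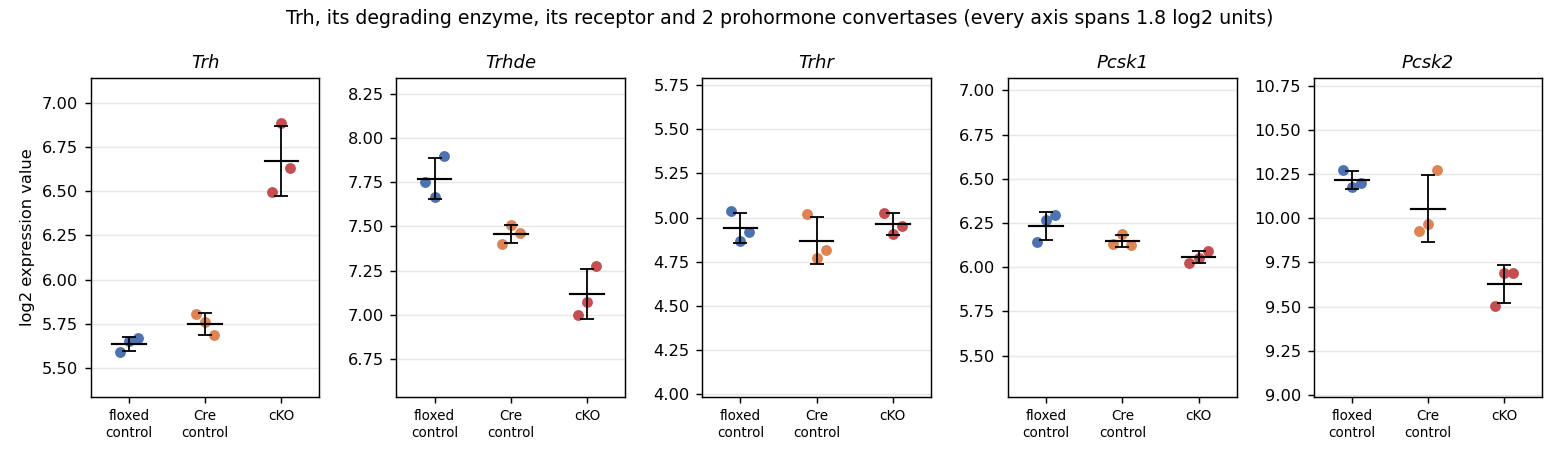
Log2 expression value of Trh, of Trhde and Trhr, which encode its degrading enzyme and its receptor, and of the prohormone convertase genes Pcsk1 and Pcsk2 in each library. Points are libraries, lines are means and bars are SD (n = 3), with 1.8 log2 units per axis. Trh is highest and Trhde lowest in the cKO libraries, and Trhr overlaps between the groups.

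All 25 genes of peptide processing and dense-core vesicles were past the minimum. Past the adjusted p, 15 were lower and 4 higher in cKO than in floxed controls, beside 18.8% and 19.5% of all genes. Versus Cre controls 5 were lower and 0 higher by limma, beside 4.85% and 4.87% of all genes. The median log2 difference was -0.23 and -0.16 respectively, beside 0.011 and 0.012 over all genes. Pcsk2, which encodes prohormone convertase 2, had values of 10.28, 10.18 and 10.20 among floxed controls, 9.93, 9.97 and 10.27 among Cre controls and 9.51, 9.69 and 9.69 among cKO libraries. It fell by 0.59 versus floxed controls (limma, adjusted p = 0.00126) and by 0.42 versus Cre controls (adjusted p = 0.0222), the latter not past the threshold without Cre control replicate 3 or cKO replicate 1 (limma, adjusted p = 0.0520 and 0.0905) or in a fit of the 6 libraries alone (0.0589). Syt4, a synaptotagmin of dense-core vesicles, fell by 0.77 versus floxed controls and by 0.45 versus Cre controls (limma, adjusted p = 9.29e-04 and 0.0343). The second fell short of the threshold on leaving out floxed control replicate 1 or 3, either of Cre control replicates 2 and 3, or cKO replicate 1 or 2, in a fit of the 6 libraries alone or with no minimum (adjusted p from 0.0504 to 0.132 by limma). Pcsk2 and Syt4 were named for being past 1.5-fold in these data. The other 3 genes lower than in Cre controls were Pcsk1n, Scg5 and Vgf, named after their values were seen. Each of these 3 lost that call in at least 1 fit without a library. The 4 higher than in floxed controls were Cpd, Pam, Tpst1 and Tpst2, also named afterwards, which encode a carboxypeptidase, the amidating enzyme and the tyrosine sulfotransferases. Pcsk1, prohormone convertase 1, fell by 0.18 versus floxed controls (limma, adjusted p = 0.0283), though not past the threshold without floxed control replicate 2 or 3 or cKO replicate 1 or 2 (limma, adjusted p = 0.0775, 0.102, 0.0924 and 0.0732).

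Of 29 receptors for the peptides of the 10 precursors, 13 were past the minimum. In cKO 5 of them were lower and 1 higher than in floxed controls, beside 18.8% and 19.5% of all genes. Their median log2 difference was -0.054, beside 0.011 over all genes. Versus Cre controls 1 was lower and 0 higher by limma, beside 4.85% and 4.87% of all genes. The 5 lower than in floxed controls were Adcyap1r1, the receptor of PACAP, with a log2 difference of -0.32 (limma, adjusted p = 0.00210), Tacr3, Sstr1, Npy1r and Cckar. The 1 that rose was Oprk1, the receptor of dynorphins, with 0.18 (limma, adjusted p = 0.0106). These genes were named after their values were seen. Tacr3, a tachykinin receptor, was the 1 that also passed versus Cre controls, with log2 differences of -0.29 and -0.31 (limma, adjusted p = 0.00362 and 0.0151), and it fell short there on leaving out cKO replicate 1 (0.0630). Tacr1, the receptor of substance P, had a log2 difference of -0.014 and 0.026 versus floxed and Cre controls (limma, adjusted p = 0.872 and 0.812).

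Of 11 peptidases that degrade neuropeptides, 3 were higher (Mme, Anpep and Thop1) and 3 lower (Trhde, Nln and Lnpep) in cKO than in floxed controls, and 1 was higher (Thop1) and 2 lower (Trhde and Nln) than in Cre controls. Over all genes, 19.5% were higher and 18.8% lower in the first comparison and 4.87% and 4.85% in the second, and the median log2 difference of the 11 was 0.17 and 0.086, beside 0.011 and 0.012 over all genes. Thop1, Nln and Lnpep were named after their values were seen, and Mme and Anpep for being past 1.5-fold in these data. The calls of Thop1 and Nln versus Cre controls were lost without Cre control replicate 3, among other libraries (limma, adjusted p = 0.142 for each). Mme, the enkephalin-degrading neprilysin, rose by 0.72 (limma, adjusted p = 0.00710) and Anpep, aminopeptidase N, by 0.66 (adjusted p = 0.00959). Their log2 differences from the Cre control were 0.57 and 0.43 (limma, adjusted p = 0.0546 and 0.105), of which that of Mme passed without cKO replicate 3 (0.0448) and that of Anpep without Cre control replicate 2 (0.0326). Both genes are also known from mesenchyme and vessels. The mesenchyme and meninges markers summed to 1131 to 2041 cpm in the floxed control, 1436 to 2359 cpm in the Cre control and 2352 to 2461 cpm in cKO, with 7 of 9 tested higher versus floxed controls and 0 versus Cre controls, and their part in the values of Mme and Anpep was not tested.

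**Figure D5:**
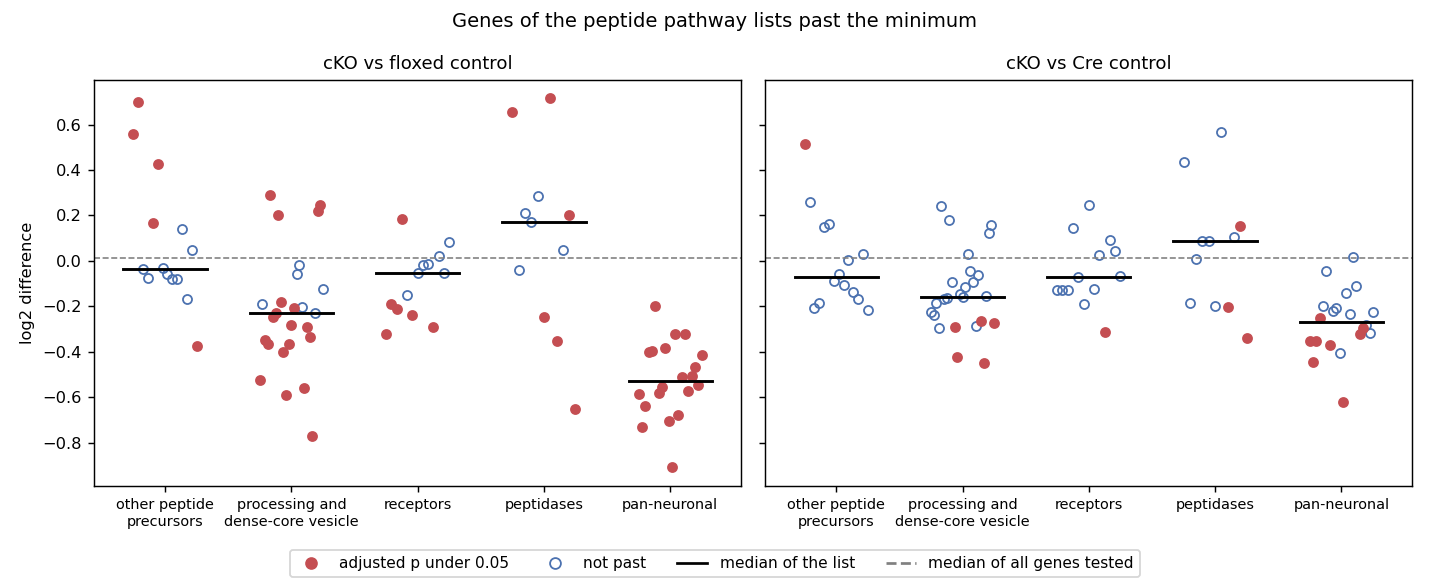
Log2 difference of the tested genes of 5 lists in cKO versus floxed controls (left) and Cre controls (right). Each point is a gene, filled red where it passed the adjusted p, black lines are list medians and the dashed line is the median of all genes tested. Most genes of peptide processing and all but 1 pan-neuronal gene lie under 0 in both panels, and the peptidases lie on both sides of it.

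Over the 9 libraries, the tested genes whose values followed Trh most closely included Prelid2, Gmpr2, Prokr1 and Chst2, with Pearson correlations of 0.98, 0.98, 0.98 and 0.97. Their log2 means went from the floxed control through the Cre control to cKO as 6.79, 6.91 and 7.26 for Prelid2 and as 7.24, 7.32 and 7.81 for Prokr1. The lowest correlations with Trh were those of Lrch2 and Htr1a, both -0.97. The genes closest to the other precursors were Cntn1 for Adcyap1 (0.98), Gabra4 for Tac1 (0.98), Drd1 for Cck (0.97), Zfp90 for Npy (0.99), Aqp1 for Penk (0.96), Cabp1 for Pdyn (0.94), Gmpr for Nts (0.95) and Abat for Sst (0.91). The 9 points share 3 genotypes and 1 normalization, so these correlations describe likeness over the groups and were not tested.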

How the data were processed

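Midbrain mRNA of 9 libraries was sequenced by the authors after poly-A selection. The submitters' processing notes name FastQC 0.10.1, kallisto 0.46.1, DESeq2 and the build mm10. The deposited table holds log2 values made by the authors, with 1 column per library and no counts. The transformation is not given in the sources used here, and that libraries are on a common scale and weak expression is shrunk was read from the values. Of its 27360 rows, 5764 have no gene name and were left out (0.334% to 0.396% of the linear sum).

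Values were compared with limma 3.58.1 in R 4.3.3, as 3 contrasts of 1 fit over all 9 libraries with a trended prior, on 14033 genes with at least 1 cpm in 3 libraries, and p-values were adjusted by Benjamini-Hochberg over all of them. The fit was tested on simulated data. Coordinates are those of GENCODE vM21 (GRCm38) and promoters those of RefSeq. Alternatives were the minimum, the prior, the scaling, the libraries fitted, the fold limit, a replicate block and leaving out each library. The named genes were the members, Gpr161, the Trh receptors and degrading enzyme, list genes past 1.5-fold, and the genes closest to a member by correlation, of which 1 is not reported here. The members and lists were chosen with earlier results of these data known. The contrasts share libraries.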

Additional observations from a re-analysis of the deposited data

How the results depend on the processing

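Leaving out each library in turn gave 3 to 5 lower and 0 to 1 higher calls among the 8 precursors other than Trh versus floxed controls, and 0 to 3 lower calls versus Cre controls. With a minimum of 5 cpm 3 were lower and 0 higher versus floxed controls. Cck, Pdyn and Nts did not reach that minimum and were not in this fit. With the fold limit of 1.5 there were 0 calls in any comparison, and with only the 6 libraries compared 1 was lower versus Cre controls. Over all genes, 2739 were higher and 2642 lower in cKO versus floxed controls (188 and 222 with the fold limit, 1835 to 3385 and 1772 to 3169 without a library). Against the Cre control 684 were higher and 681 lower (47 and 32 with the fold limit, 434 and 439 with no minimum, 225 and 212 with only 6 libraries, 140 to 1534 and 97 to 1760 without a library). Between the controls 7 were higher and 1 lower (4 and 0 with the fold limit, 3 and 0 with only 6 libraries, 0 lower with no minimum or quantile normalization, 4 lower with no trend, 1 to 51 and 0 to 17 without a library). The cause of these shifts was not tested beyond the fewer genes or libraries.

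The sign of small differences turned without single libraries: Sst versus floxed controls without floxed control replicate 1 (0.0083) or cKO replicate 1 (0.049), over a range from -0.12 to 0.049, Sst against the Cre control without Cre control replicate 1 (-0.020) or cKO replicate 2 or 3 (-0.027 and -0.036), over a range to 0.12, and Penk against the Cre control without Cre control replicate 2 (0.17) or cKO replicate 2 (0.032), over a range from -0.17 to 0.17. So did Tac1 between the controls on leaving out floxed control replicate 1 (0.049) or Cre control replicate 1 (0.023), with a lowest value of -0.074, Trhr against the floxed control without floxed control replicate 2 (-0.016) or cKO replicate 1 (-0.012), with a highest value of 0.069, and Tacr3 between the controls without Cre control replicate 2 (-0.027), with a highest value of 0.051. Trh was 0.93 to 1.12 higher versus floxed controls and 0.81 to 1.01 higher versus Cre controls in all 16 alternatives.

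Deviations of same-numbered libraries of different groups correlated at -0.027 to 0.26 (median 0.10), and those of differently numbered ones at -0.28 to 0.16 (median -0.053). Whether the replicate numbers mark pairs was not tested, and the main fit did not pair the libraries. Over all genes the replicate block gave 850 higher and 929 lower versus Cre controls, and 2899 and 2786 versus floxed controls. With the replicate block 5 precursors were lower and 1 higher versus floxed controls and 3 lower versus Cre controls, and Mme and Apln also passed versus Cre controls (limma, adjusted p = 0.00229 and 0.0394), while Thop1 and Nln did not (0.0543 and 0.0528).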

Other observations

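Of 49 other neuropeptide precursors, 48 were in the table and 14 were past the minimum, 34 being under it, 4 of which were at 0 in every library. In cKO 4 were higher and 1 lower versus floxed controls by limma, beside 19.5% and 18.8% of all genes. Versus Cre controls 1 was higher and 0 lower by limma (3 and 2 at an unadjusted p under 0.05). Of all genes 4.87% were higher and 4.85% lower there past the adjusted p. Apln, which encodes apelin, a ligand of endothelial cells, was at 8.19, 8.34 and 8.27 in the floxed control, 8.51, 8.92 and 8.71 in the Cre control and 8.92, 9.02 and 8.98 in cKO on the log2 scale. It rose by 0.70 versus floxed controls (limma, adjusted p = 7.25e-04), and its log2 difference from the Cre control was 0.26 (limma, adjusted p = 0.0984), which passed without Cre control replicate 2 (0.0389). Adm, the precursor of the vasodilator adrenomedullin, was at 6.01, 5.99 and 6.03 in the floxed control, 6.14, 6.00 and 6.03 in the Cre control and 6.47, 6.81 and 6.41 in cKO. It rose by 0.56 and 0.51 against the floxed and the Cre control (limma, adjusted p = 0.00197 and 0.0152), the latter not past the threshold without Cre control replicate 3 (0.0561). The others were Edn3, Edn1 and, in the lower direction, Spx. They and Adm were named after their values were seen, and Apln for being past 1.5-fold in these data.

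Endothelial markers had 4 of 8 higher in cKO versus floxed controls and 0 than in the Cre control by limma (1 at an unadjusted p under 0.05). Erythroid markers had 6 of 10 and 4 of 10 higher, with a sum of 5660 to 9663 cpm in the floxed control, 6753 to 7955 cpm in the Cre control and 8755 to 16776 cpm in cKO. Their part in the values of Apln and Adm was not tested. Microglia and macrophage markers had 0 of 8 called in both comparisons by limma (4 and 0 at an unadjusted p under 0.05), and telencephalic markers 0 of 6 (0 and 0).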
